A study of Mus musculus with 2 samples.

Results

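The genes described here are the Eph receptors, the ephrins, the semaphorins, the plexins and the neuropilins of the mouse, 53 genes taken by name from a list of the families and found in a mouse gene annotation that holds 21938 protein-coding genes. They comprise 25 receptor genes (14 Eph receptors, 9 plexins and 2 neuropilins) and 28 ligand genes (8 ephrins and 20 semaphorins). The genes were taken by family and not by a measured value, but earlier results of these data were known when they were chosen. The tissue was whole hindbrain of the B6NCrl strain on postnatal day 0, taken from pups of both sexes, and chromatin was probed by DNase-seq, in which a nuclease cuts accessible DNA and the cut ends are sequenced. There was 1 group with 2 biological replicates and no other condition, so nothing was tested and values are given for each replicate.

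Eph receptors are receptor tyrosine kinases at the cell surface, and ephrins are their membrane-anchored ligands on neighbouring cells: ephrin-A proteins are held by a lipid anchor and ephrin-B proteins span the membrane. Semaphorins, some secreted and most membrane-bound, act through plexins, and the secreted class 3 proteins mostly need a neuropilin as co-receptor. In the developing hindbrain these families are known for keeping rhombomere cells apart, for guiding commissural and cranial motor axons, and for steering the migration of cerebellar granule cells.

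An open promoter means here that a peak in the deposited list of each replicate lay within 500 bp of any annotated transcription start of the gene. Distal regions are stretches with a peak in both replicates that lie more than 500 bp from every annotated start, and each was given to the protein-coding gene whose start is nearest. Nearness does not show that a region acts on that gene. The deposited tables hold no read counts, so depth is unknown, and a gene without a peak is below the authors' calling threshold, which is not the same as closed chromatin. Replicate 1 had 271150 deposited peaks and replicate 2 had 172002. The authors' peak score is a whole number from 1 to 150 whose scaling is not stated, so it is read by its rank within its own list and not as a level between replicates. Of markers of the labelled tissue, 15 of 17 hindbrain genes and 8 of 8 pan-neuronal genes had an open promoter, against 4 of 10 forebrain genes and 0 of 6 liver genes. Of markers of other cells, 4 of 10 endothelial, 6 of 8 meningeal or fibroblast, 4 of 8 oligodendrocyte lineage and 2 of 8 microglial genes were open. Over all protein-coding genes the share was 66.3%, so these counts do not by themselves show such cells. In such bulk tissue, fewer cells with an open site and less opening per cell cannot be told apart, and which cells carry the sites described below was not tested.

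The sequences below are the promoter peak with the highest rank among the 53 genes and, for up to 2 genes of each family, the 200 bases centred on the strongest distal region that lies outside exons; that of Sema6a, the highest of the semaphorins, is not shown, and the semaphorin regions printed are the next in rank. They were read from the mouse genome, build mm10, in the coordinates of the peak lists. Capitals mark matches, on either strand, to the short words searched in all distal regions (listed with their shares further on) and to 3 patterns added after the sequences had been seen: CACGTG, the X-box consensus bound by Rfx factors, and the CTCF core consensus.
Epha7, promoter peak, chr4:28812956-28813105, plus strand: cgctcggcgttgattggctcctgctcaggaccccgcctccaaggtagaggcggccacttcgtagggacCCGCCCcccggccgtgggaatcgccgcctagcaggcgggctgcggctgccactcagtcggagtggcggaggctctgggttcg
Ephb2, distal region, chr4:136755561-136755760, plus strand: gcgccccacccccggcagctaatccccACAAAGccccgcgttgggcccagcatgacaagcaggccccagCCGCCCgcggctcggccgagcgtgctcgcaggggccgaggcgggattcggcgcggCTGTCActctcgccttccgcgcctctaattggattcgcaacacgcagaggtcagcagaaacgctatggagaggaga
Epha6, distal region, chr16:60606401-60606600, plus strand: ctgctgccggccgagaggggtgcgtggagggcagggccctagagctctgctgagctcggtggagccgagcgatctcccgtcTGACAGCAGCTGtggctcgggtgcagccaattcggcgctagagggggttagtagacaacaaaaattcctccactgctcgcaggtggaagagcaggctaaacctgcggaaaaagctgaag
Efna5, distal region, chr17:62884231-62884430, plus strand: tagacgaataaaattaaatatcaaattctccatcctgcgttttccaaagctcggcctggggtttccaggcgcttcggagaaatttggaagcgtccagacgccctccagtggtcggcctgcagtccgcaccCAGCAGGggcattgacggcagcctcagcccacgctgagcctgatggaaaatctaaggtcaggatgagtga
Efna3, distal region, chr3:89320651-89320850, plus strand: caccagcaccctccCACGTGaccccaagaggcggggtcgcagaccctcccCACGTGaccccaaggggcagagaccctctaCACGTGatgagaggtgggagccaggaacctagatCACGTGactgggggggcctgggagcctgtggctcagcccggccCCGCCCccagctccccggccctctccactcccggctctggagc
Plxnc1, distal region, chr10:94905771-94905970, plus strand: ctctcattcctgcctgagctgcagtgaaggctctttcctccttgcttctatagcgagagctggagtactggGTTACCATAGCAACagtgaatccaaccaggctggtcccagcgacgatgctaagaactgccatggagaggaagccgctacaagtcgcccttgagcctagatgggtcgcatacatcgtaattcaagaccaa
Nrp2, distal region, chr1:62697061-62697260, plus strand: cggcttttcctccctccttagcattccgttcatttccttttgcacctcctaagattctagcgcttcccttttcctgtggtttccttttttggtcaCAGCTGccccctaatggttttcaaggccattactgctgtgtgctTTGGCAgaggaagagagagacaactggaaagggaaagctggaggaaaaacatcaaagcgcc
Sema4a, distal region, chr3:88467221-88467420, plus strand: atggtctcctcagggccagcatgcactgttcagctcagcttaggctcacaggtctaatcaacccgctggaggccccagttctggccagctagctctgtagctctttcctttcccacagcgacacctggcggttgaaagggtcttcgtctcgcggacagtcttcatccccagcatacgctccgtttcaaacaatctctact
Sema4b, distal region, chr7:80192471-80192670, plus strand: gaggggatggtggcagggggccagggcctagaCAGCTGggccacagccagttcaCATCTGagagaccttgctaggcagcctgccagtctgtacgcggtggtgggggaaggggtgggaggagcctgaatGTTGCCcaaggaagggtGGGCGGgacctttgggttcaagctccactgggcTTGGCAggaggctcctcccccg

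These regions differ in what they hold. The Epha7 promoter peak ends 26 bp before the annotated start, is 71.3% G and C, and holds 1 marked word, the GC box GGGCGG that Sp factors bind; that word is in 55.8% of the best replicate 1 promoter peaks of the 14541 open genes. The Efna3 region, in an intron of the gene, holds CACGTG repeatedly within its 200 bases, the E-box read by basic helix-loop-helix zipper factors. Only 9 of 107430 distal regions, 0.00838%, held CACGTG at 3 or more places, and the Efna3 region was the only one of 901 nearest to the 53 genes to do so. CACGTG occurred at least once in 3.76% of all distal regions and in 43 of the 901. The Plxnc1 region carries a full Rfx X-box, a pattern found in 1.30% of all distal regions and in 16 of the 901, or 1.78%. The CTCF core was in 21 of the 901 regions, or 2.33%, beside 5.55% of all distal regions, and in none of those printed. These 3 patterns were chosen after the sequences were seen, and a match is a description, not a bound site.

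Promoters of these families were open almost without exception. A promoter peak was present in both replicates at 52 of 53 genes, beside 66.3% of all protein-coding genes. All 28 ligand genes and 24 of 25 receptor genes were open, so the classes differed by 1 gene. Replicate 1 had a promoter peak at all 53 genes, beside 70.8% of all genes, and replicate 2 at 52, beside 66.8%. Most of the genes were rich in CpG at the annotated 5′ end. By CpG within 500 bp of that end, 42 of the 53 lay in the upper 50% of genes. In that upper part 95.8% of all genes were open, and all 42 were. Of the 11 in the lower 50%, 10 were open, beside 36.7% of all genes there. Of these 10, Plxna2, Sema3b and Plxnb3 were open only at other starts than the 5′ end, where CpG was measured.

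Among open genes, the peaks of these families scored on the low side. The best promoter peak had a median score of 116 in replicate 1 and 88.5 in replicate 2 over the open members, below the medians of 129 and 109 over all open genes. It ranked in the highest 10% of both lists at 29 of the 53 genes, beside 46.9% of all genes, a share that counts genes with no promoter peak. Among open genes alone it was 29 of 52 members, or 55.8%, beside 70.8% of all open genes. By class this held for 16 of 25 receptor genes and 13 of 28 ligand genes. Median scores were 122 and 91.0 for receptors and 115 and 86.0 for ligands, a gap that is small beside the range of 56 to 146 in replicate 1 among open members. The hotspot around the best promoter peak, a broader stretch of raised cutting, had a median width of 1490 and 1200 bp for receptors and 1080 and 729 bp for ligands, beside 1170 and 1080 bp over all open genes. The replicates ordered the members alike, with a Spearman rank correlation of 0.874 over 52 genes that share their 2 libraries.

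**Figure D1:**
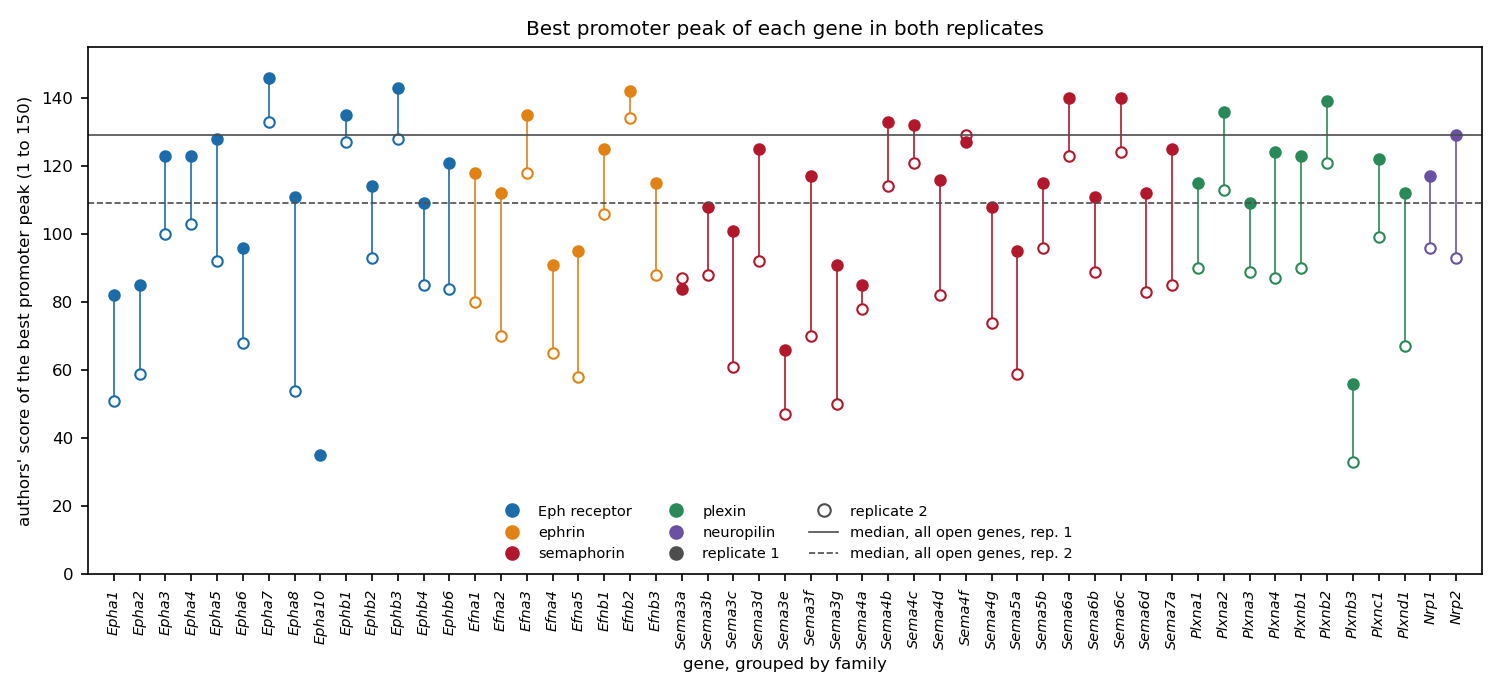
Authors' score of the best promoter peak (vertical axis, 1 to 150) for each of the 53 genes (horizontal axis), with filled points for replicate 1, open points for replicate 2 and colours for families; horizontal lines are the medians over all open genes, 129 and 109. Most genes lie under the line of their replicate, Epha7 at 146 lies highest in replicate 1, Efnb2 at 134 in replicate 2, and Epha10 has no point for replicate 2.

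Among Eph receptors the 3 strongest promoters belonged to Epha7, Ephb3 and Ephb1. Epha7, a receptor known from the sorting of axon maps, lies at chr4:28813131-28967499 and scored 146 in replicate 1 and 133 in replicate 2. Ephb3, which takes part in midline crossing with other EphB receptors, lies at chr16:21204755-21223305 and scored 143 and 128. Ephb1, at chr9:101922128-102354693, scored 135 and 127. These 3 ranked within the top 2% of both lists. Epha3, Epha4 and Epha5, receptors of growing axons, followed with 123 and 100, 123 and 103, and 128 and 92. Epha4 is the receptor best known from rhombomere boundaries and spinal midline circuits. At the other end were Epha1, with 82 and 51, and Epha2, with 85 and 59, both better known from epithelia than from neurons. Epha8 was uneven, with 111 in replicate 1 and 54 in replicate 2, and Epha6 reached 96 and 68. Ephb2, Ephb4, the venous endothelial receptor, and Ephb6, whose kinase domain is inactive, lay between, at 114 and 93, 109 and 85, and 121 and 84.

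Epha10 was the only member without a promoter peak in both replicates. It encodes a receptor whose kinase domain is thought to be inactive and lies at chr4:124880899-124917800. Its best promoter peak scored 35 in replicate 1 and belonged to a start 18.5 kb inside the gene, and its 5′ end had a peak of 33. Replicate 2 had none at either. Yet a strong region, with scores of 123 and 114, lay 812 bp downstream of its first start at chr4:124881616-124881805, in an exon, just past the 500 bp limit. It ranked 3rd among the 901 distal regions of the families, and with a window of 1000 bp all 53 genes counted as open.

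Every ephrin promoter was open in both replicates. Efnb2, an ephrin-B of arteries and of rhombomere boundaries, lies at chr8:8617434-8661242 and scored 142 and 134, close to the top of both lists. Efna3 at chr3:89313899-89322965 scored 135 and 118, and Efnb1 at chrX:99136130-99148991 scored 125 and 106. The rest ran from 91 to 118 in replicate 1 and from 58 to 88 in replicate 2, with Efna4 at 91 and 65 and Efna5 at 95 and 58 lowest. Efna5, a graded cue of many axon maps, thus had one of the weaker promoter peaks. Its hotspot spanned 5030 bp in replicate 1, the widest of these genes, but 808 bp in replicate 2, below the members' median of 936 bp. Efna1, Efna3 and Efna4 are neighbours on chromosome 3 between positions 89271733 and 89338028, and all 3 were open.

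Plexin and neuropilin promoters were open at all 11 genes. Plxnb2, needed by migrating cerebellar granule cell precursors, lies at chr15:89155549-89180788 and scored 139 and 121. Plxna2, the receptor through which Sema6a guides granule cells, lies at chr1:194618218-194816869 and scored 136 and 113. Plxnc1, the receptor for Sema7a, lies at chr10:94790866-94944835 and scored 122 and 99. Nrp1 and Nrp2, the co-receptors of class 3 semaphorins, had 117 and 96, and 129 and 93. The X-linked Plxnb3 was the weakest open promoter of all 53 genes, at 56 and 33. It is known from the oligodendrocyte lineage, of whose 8 markers 4 were open. The remaining plexins, Plxna1, Plxna3, Plxna4, Plxnb1 and Plxnd1, ran from 109 to 124 in replicate 1 and from 67 to 90 in replicate 2.

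All 20 semaphorin promoters were open. Sema6c at chr3:95160457-95174024 scored 140 and 124, Sema6a on chromosome 18 scored 140 and 123, and Sema4f at chr6:82911885-82939769 scored 127 and 129. These 3 are transmembrane proteins. The secreted class 3 genes stood lower as a group, with median scores of 101 and 70.0 over 7 genes, against 116 and 89.0 over 13 membrane-bound semaphorins. The lowest were Sema3e, the ligand of Plxnd1, at 66 and 47, and Sema3g at 91 and 50. Sema3d at 125 and 92 was the highest of class 3 and lay above the membrane-bound median in both replicates, so the groups overlap. Sema3b, Sema3c and Sema3f had 108 and 88, 101 and 61, and 117 and 70. Sema3a, the classic growth cone collapsing factor, had 84 and 87. It and Sema4f were the only 2 of 52 open members with the larger raw score in replicate 2, though scores are not levels between replicates. By percentile within each list, Sema3a stood at 84.3 and 90.5 and Sema4f at 96.8 and 98.7. Ephb1, Efnb2 and Sema4a also had the higher percentile in replicate 2. Among the other membrane-bound genes Sema4b scored 133 and 114, Sema4c 132 and 121, and Sema7a, which has a lipid anchor, 125 and 85. Sema4a, known from immune cells, had 85 and 78, but at different starts: the start with 85 in replicate 1 had 60 in replicate 2, and that with 78 in replicate 2 had 82 in replicate 1. The remaining 6, Sema4d, Sema4g, Sema5a, Sema5b, Sema6b and Sema6d, ran from 95 to 116 in replicate 1 and from 59 to 96 in replicate 2.

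Most of these genes have several annotated starts, and which of them was open varied. Starts whose 500 bp windows touch were joined into clusters, and 12 of the 53 genes had a single cluster. The cluster at the 5′ end of the gene was open in both replicates at 49 of 53 genes, beside 61.6% of all genes. Of the 98 clusters elsewhere in the genes 24 were open, or 24.5%, beside 16.5% of such clusters over all genes. The 16.5% also counts clusters of genes with no open promoter, and the share among open genes alone was not taken. Counted over the members only, 16 genes had at least 2 open clusters. At 44 genes the cluster at the 5′ end also had the highest score, likewise without a count over all genes.

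The exceptions show where a single annotated start would have missed or understated the gene. Plxna2 had no peak at its outermost start, and its peak of 136 and 113 lay at a start 1.61 kb further in. Sema3b likewise had none at its 5′ end and 108 and 88 at starts of non-coding transcripts 7.06 kb in. In Sema3a the 5′ end scored 45 and 29, while a start of a coding transcript 273 kb into the gene scored 84 and 87. The same held for Sema6d, with 89 and 56 at the 5′ end against 112 and 83 at a coding start 520 kb in. The remaining exceptions were Efna1 (77 and 57 at the 5′ end, 118 and 80 at a start 1.5 kb in), Sema4a (68 and 66, then 82 and 78), Plxnc1 (117 and 96, then 122 and 99 at 115 kb) and Plxnb3 (35 in replicate 1 only, then 56 and 33 at 8.44 kb), besides Epha10. The inner starts of Plxnc1, Plxnb3 and Epha10 are of non-coding transcripts too, so Sema3b and Plxnb3 counted as open only through such starts. Whether transcripts begin at these inner starts was not measured.

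Open chromatin away from the promoters was uneven among the genes. In all, 901 of 107430 distal regions had one of the 53 genes as the nearest, 506 for receptors and 395 for ligands. The median was 9.00 regions a gene, beside 2.00 over all protein-coding genes. At least 1 region was near 50 of 53 genes (68.7% of all genes), at least 10 near 26 (15.2%), and at least 20 near 18 (5.80%). Receptor genes had a median of 19 regions and ligand genes of 7; at least 20 regions were near 12 of 25 receptor genes and 6 of 28 ligand genes. The 10 richest genes held 51.8% of the regions. The classes overlap widely, from 0 to 51 regions for receptors and from 0 to 77 for ligands.

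**Figure D2:**
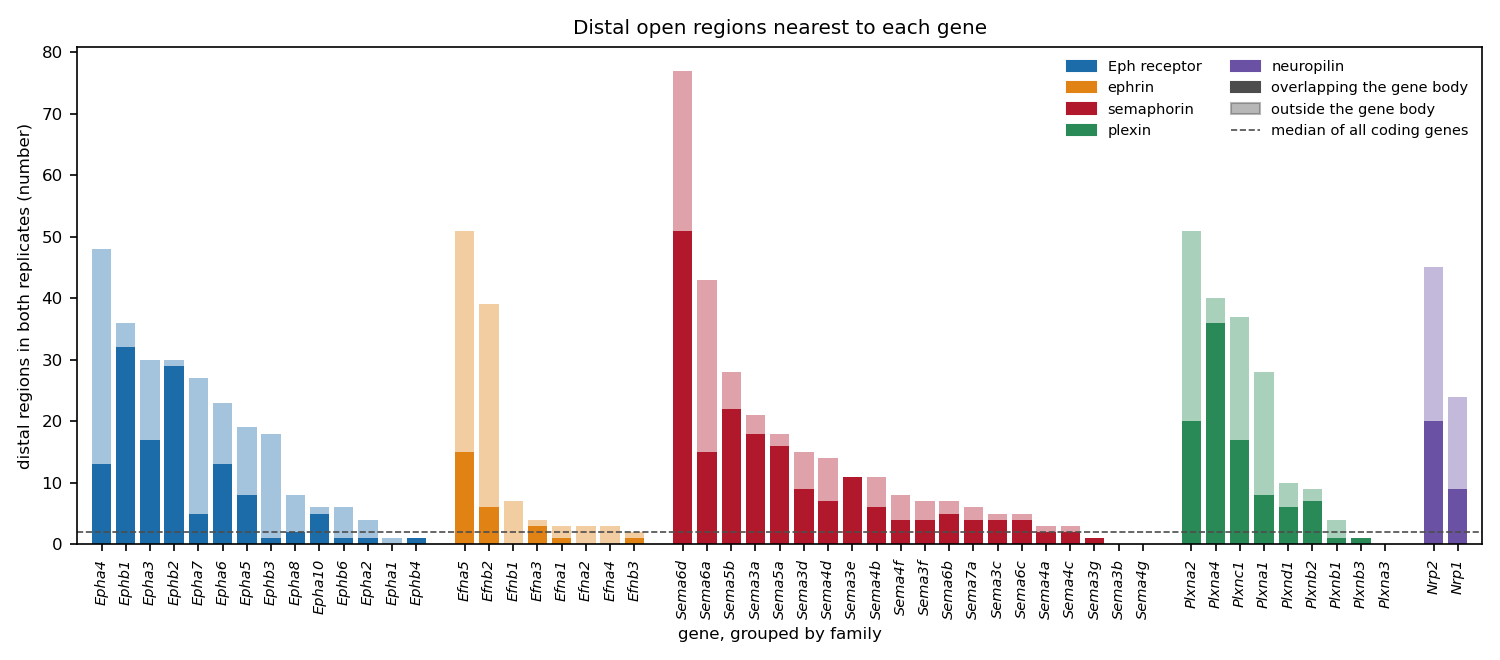
Number of distal regions found in both replicates (vertical axis) nearest to each of the 53 genes (horizontal axis, by family), with the dark part of a bar for regions that overlap the gene body and the pale part for those outside; the dashed line is the median of 2.00 over all protein-coding genes. Eph receptors, ephrins, semaphorins and plexins each have a few genes with 20 or more regions beside others with under 10, both neuropilins have over 20, and Sema3b, Sema4g and Plxna3 have none.

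Sema6d, a transmembrane semaphorin at chr2:124089969-124667770, had 77 regions, the most of the 53 genes and the 21st most of all protein-coding genes. Of these, 51 lay inside the gene. Sema6a had 43 and Sema5b, a thrombospondin-repeat semaphorin at chr16:35541145-35664732, had 28. Thus the richest semaphorins were membrane-bound, while the 7 secreted class 3 genes had 60 regions in all, 21 of them at Sema3a and none at Sema3b. Sema3d had 15, Sema3e 11, Sema3f 7, Sema3c 5 and Sema3g 1. Sema5a had 18, Sema6b 7 and Sema6c 5, and in classes 4 and 7 no gene exceeded the 14 regions of Sema4d.

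Among Eph receptors, Epha4 at chr1:77367185-77515088 had 48 regions, Ephb1 36, and Epha3 at chr16:63543534-63864175 and Ephb2 at chr4:136647539-136835988 had 30 each. Their layouts differed. At Epha4, 35 of 48 regions lay outside the gene body and 10 lay over 500 kb from its nearest start, whereas at Ephb2 29 of 30 lay within it. Ephb3 had 18 regions, 15 of them downstream of the gene. Epha1 and Ephb4 had 1 region each, Epha2 had 4, and Epha10 and Ephb6 had 6 each. Epha5, Epha6, Epha7 and Epha8 had 19, 23, 27 and 8.

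Among ephrins, 2 genes held most regions. Efna5 at chr17:62604184-62881317 had 51 and Efnb2 had 39, while Efnb1 had 7 and the other 5 had from 2 to 4. All 39 regions of Efnb2 lay inside or downstream of the gene, 19 of them over 500 kb away. The 3 plexins with the most regions were Plxna2 with 51, Plxna4 at chr6:32144268-32588192 with 40 and Plxnc1 with 37. Their layouts differed too, since 36 of 40 lay inside Plxna4 while 28 of 51 lay upstream of Plxna2. Nrp2 at chr1:62703285-62818695 had 45 and Nrp1 24. Plxna1 had 28, Plxnd1 10, and the 3 plexin B genes had 9, 4 and 1.

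**Figure D3:**
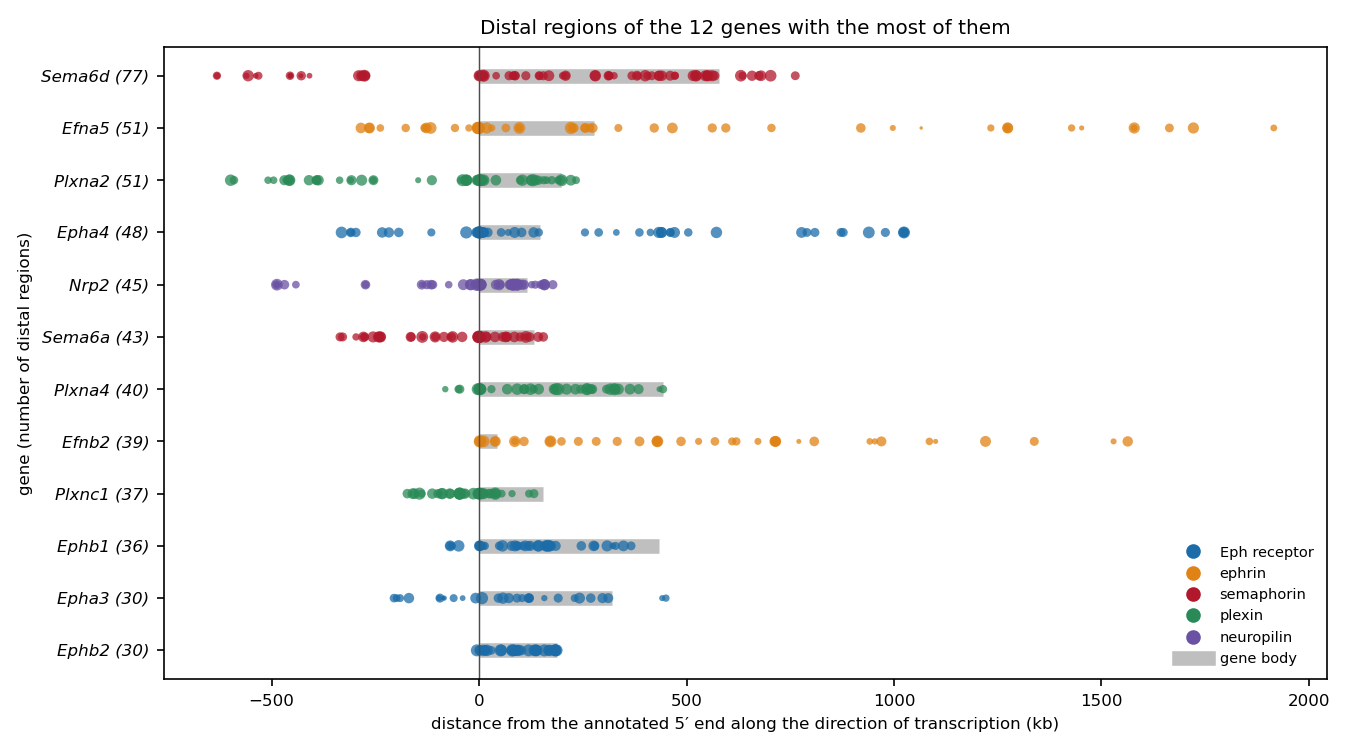
Distal regions of the 12 genes with the most of them, placed by distance in kb from the annotated 5′ end in the direction of transcription (horizontal axis), 1 gene a row with its number of regions; grey bars are gene bodies and larger points have higher mean score percentiles. Regions of Ephb2 and Plxna4 lie mostly inside the gene, and those of Efnb2 and Efna5 reach beyond 1000 kb downstream.

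The number of regions followed the stretch of genome that lies nearest to each gene. Over the 53 genes the Spearman rank correlation between the number of regions and the length of that stretch was 0.876, beside 0.667 over 21921 protein-coding genes; the points share both libraries and each count can only grow with its stretch. Receptor genes had a median stretch of 0.219 Mb and ligand genes of 0.0542 Mb. Counted per Mb over all genes of a class, receptors had 38.9 regions and ligands 40.7, beside 39.4 over the genome, so the larger number near receptors did not show per Mb. The median density per gene was 63.2 for receptors and 85.5 for ligands, and 77.1 for all 53 genes beside 35.0 over all protein-coding genes. The order of the pooled values turned when only peaks at or above the median score of each list were used, to a ratio of 1.04, and when Sema6d was left out, to 1.01.

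**Figure D4:**
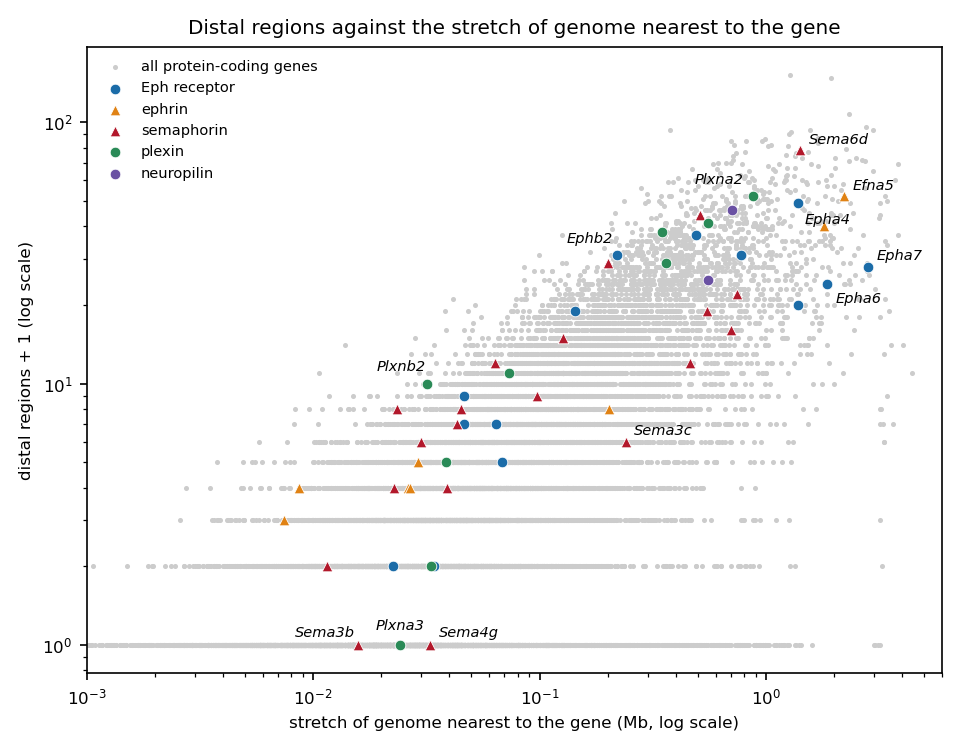
Distal regions plus 1 (vertical axis, log scale) against the stretch of genome nearest to the gene in Mb (horizontal axis, log scale); grey points are all protein-coding genes, circles are receptor genes and triangles are ligand genes, coloured by family. Genes with longer stretches have more regions, and Epha7, with 2.84 Mb, lies below Sema6d, with 1.42 Mb.

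Families differed more than the classes did in pooled density, counted per Mb over all genes of a family. EphB genes had 95.6 regions per Mb and EphA genes 19.7, with similar medians of 18 and 19 regions a gene, since the EphA genes lie in longer stretches (median 0.779 against 0.143 Mb). Epha7, for example, had 27 regions in 2.84 Mb, or 9.51 per Mb, and Ephb2 had 30 in 0.219 Mb, or 137 per Mb. Plexins had 76.8 per Mb, neuropilins 54.5 and ephrins 25.9. Membrane-bound semaphorins had 70.7 and class 3 semaphorins 27.0, with median stretches of 0.0633 and 0.240 Mb. Densities of the families were not compared at equal stretch length. The median density per gene kept EphB (93.1) above EphA (38.5) and membrane-bound (110) above class 3 semaphorins (23.7). For ephrins the order turned, with a median of 113 against 77.1 for plexins and 53.3 for neuropilins. Efna5 and Efnb2 held 51 and 39 of the 112 ephrin regions, in 2.22 and 1.80 of 4.32 Mb. Although the pooled density of the members, 39.7 per Mb, was near that of the genome, within each class of stretch length the members had more regions per Mb than all genes together: 121 against 52.8 below 0.05 Mb (22 members), 118 against 51.7 from 0.05 to 0.2 Mb (8 members), 66.2 against 46.7 from 0.2 to 0.5 Mb (7 members), and 30.2 against 24.5 from 0.5 Mb (16 members). Ligands were denser than receptors in 3 of these classes, with 130 against 108, 125 against 109 and, from 0.5 Mb, 33.2 against 28 per Mb. From 0.2 to 0.5 Mb the order was the other way, with 92.1 for receptors over 4 genes and 25.4 for ligands over 3.

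The regions of these genes lay far out and often in the genes' own introns. Introns of the nearest gene held 46.4% of the 901 regions, beside 38.6% of all distal regions, and intergenic sequence 37.8%, beside 43.4%. The 53 genes are longer, with a median of 36.9 kb against 17.4 kb over all protein-coding genes. Intron shares were not compared at equal gene length. The median distance to the nearest start was 56.9 kb, against 26.1 kb over all distal regions. Genes with stretches of 0.5 Mb or more held 571 of the 901 regions, beside 27616 of all 107430 distal regions. Distances were not compared at equal stretch length. More than 500 kb away were 81 regions, or 8.99%, beside 3.0%; Efnb2, Efna5 and Epha7 held 19, 17 and 16 of them. By height they were ordinary: 32 of 901, or 3.55%, ranked in the highest 10% of both lists, beside 4.65% of all distal regions, with 18 for receptors and 14 for ligands.

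The 10 highest-ranked distal regions lay near 9 genes. The first, with scores of 135 and 112, was 1.59 kb upstream of Sema6a. The second, with 131 and 110, lay inside Efnb2 at chr8:8658936-8659085, in an exon, and the third was the Epha10 region. Exons of any annotated gene were counted, so the exon need not belong to the nearest gene. The fourth, in an intron of Ephb2 80.3 kb from its 5′ end, scored 137 and 98, and the fifth, in an intron of Plxnc1, 123 and 110; both are printed above. Efna5 had 2 of the 10, 3.01 kb and 1.68 kb upstream of its start, with 121 and 105, and 120 and 101. Both lie in the same replicate 1 hotspot as its promoter, the one of 5030 bp. In replicate 2 each lay in a hotspot of 2857 bp, while the promoter peak lay in another, of 808 bp. The others were an exonic region inside Sema4c at chr1:36556616-36556805 with 119 and 104, one 6.12 kb upstream of Nrp2 with 110 and 107, and one 0.970 kb upstream of Epha6 with 113 and 103. Of the 10, 7 lay within 5 kb of a start of the nearest gene. The same share was not taken over the strongest of all distal regions.

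Short words that transcription factors read were about as frequent in these regions as elsewhere. Each word was searched on both strands in the 200 bp around the centre of a region. The NFI word TTGGCA was in 26.9% of the 901 regions and in 22.1% of all distal regions, the widest gap in percentage points among the 12 words. The E-box CAGATG of proneural factors was in 26.2% and 24.0%, and the E-box CAGCTG in 20.2% and 20.6%. The homeodomain word TAATTA was in 8.66% and 6.89%, and the Hox-Pbx word TGATNNAT in 8.66% and 8.46%. The Meis word TGACAG stood at 19.5% and 19.2%, the Sox word ACAAAG at 17.9% and 18.0%, and the Zic word CAGCAGG at 13% and 12.1%. The short Rfx word GTTGCC stood at 11% and 11.7%, the GC box GGGCGG at 7.55% and 6.76%, the AP-1 word TGACTCA at 3.33% and 4.19%, and the Egr word GCGTGGGCG at 0.111% and 0.0847%. A region can hold several of the words, which may overlap, and was counted once for each.

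Shares of the words in receptor and ligand regions went either way. The AP-1 word was in 12 of 506 receptor regions, or 2.37%, and in 18 of 395 ligand regions, or 4.56%. The Meis word was in 21.7% of 506 receptor regions and 16.7% of 395 ligand regions, and CAGCTG in 22.1% and 17.7%. CAGATG went the other way, with 24.3% and 28.6%. Regions of 1 gene share their sequence context, so these shares are descriptions of the regions and not of independent sites.

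The machinery that works under these receptors was open as broadly. Of 48 partners of Eph and plexin signalling, among them the collapsin response mediators Crmp1 and Dpysl2 to Dpysl5, the Mical monooxygenases and the Eph exchange factor Ngef, 47 had an open promoter in both replicates, beside the 66.3% of all genes. The exception was Fes, a kinase that acts on collapsin response mediators, with a peak in replicate 1 only. The partners had a median of 9.50 distal regions a gene, close to the 9.00 of the receptors and ligands, and 69.7 per Mb against 39.7. These densities were not compared at equal stretch length. Over all genes density was 52.8 per Mb for stretches below 0.05 Mb and 24.5 from 0.5 Mb. Stretches of 0.5 Mb or more belonged to 16 of the 53 genes, but among the partners only to Vav3, Kalrn and Grip1.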

How the data were processed

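DNase-seq peaks and hotspots of 2 hindbrain replicates were used as deposited by the authors. Per the labels and the deposited file lists, both were called on mm10 from each library alone, with no pooling; neither the aligner nor the peak caller is named in the labels or file lists. The labels give the replicates as separate tissue samples that share 1 donor entry, so the spread between them may be partly technical. The deposited peak score (1 to 150) was used only for ranks and filters within a list, and the deposited hotspot value is a −log10 q from 1.30 to 100; hotspots gave widths and an alternative. Peaks on chromosomes (270757 and 171790) were kept. Peaks of both lists were merged at an overlap of 1 bp, which gave 136714 regions with a peak of each, 107430 of them distal. Starts came from the GENCODE annotation of the same build, in which all 53 names matched, and a promoter with both peaks needs no overlap between them. Percentiles are within a list. CpG is observed over expected within 500 bp of the annotated 5′ end of each gene.

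The genes, the pathway, marker and word lists, and the thresholds were chosen with earlier results of these data known. Named in full are, per family, the 3 genes with the highest promoter rank, the 3 with most distal regions (ties kept), genes without an open promoter, and those nearest the 10 highest-ranked distal regions; other members were named to account for all. Sema6a is given without coordinates. No test was run. Counting was checked on simulated peaks with known answers. Alternatives were single replicates, peaks at or above the median score, hotspots, lists of equal length, a reciprocal overlap of 50%, windows of 1000 bp, regions within 50000 bp or in the gene body, and 5′ ends only. Python 3.11.15, NumPy 2.4.6, SciPy 1.17.1, pyfaidx 0.9.0.4 and matplotlib 3.10.9 were used.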

Additional observations from a re-analysis of the deposited data

How the results depend on the processing

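Open promoters depended little on the processing: under all alternatives run, from 49 to 53 of the 53 genes, 22 to 25 receptors and 27 to 28 ligands were open. Numbers of distal regions depended more on it. With replicate 1 or replicate 2 left out, the 901 regions became 1088 to 1922, the receptors' 506 became 612 to 1089 and the ligands' 395 became 476 to 833, since peaks of 1 library then sufficed. Peaks at or above the median score left 487, 284 and 203, and regions within 50000 bp or in the gene body left 599 in all and 332 for receptors. The receptor to ligand ratio per Mb, 0.955, ranged from 0.959 to 0.975 with a replicate left out, was 0.984 with lists of equal length, 0.974 with a reciprocal overlap of 50%, 0.927 within 50000 bp or in the gene body and 0.893 with 5′ ends only. It turned to 1.04 with the higher-scoring peaks and to 1.01 without Sema6d, an alternative added after seeing the data; the cause was not tested. The ratio of the 53 genes to all genes, 1.01, ranged from 0.999 to 1.04 with a replicate left out, was 0.994 with hotspots, 1.04 with lists of equal length and 0.926 within 50000 bp or in the gene body. With that limit both ratios, 0.927 and 0.926, still divide by the full stretch nearest to each gene. Without replicate 2, 41 of 53 genes had a number of distal regions more than 1.5 times apart from the value given above. No paired analysis was possible because there is 1 group. With depth unknown, a site in 1 replicate only cannot be separated from one below the threshold of the other.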
